A study of Mus musculus with 6 samples.

Results

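Vipr1, the VPAC1 receptor for vasoactive intestinal peptide (VIP), and 9 genes of epithelial ion transport were followed in mouse small-intestine organoids exposed to thyroid hormone. The other genes are Cftr, Slc12a2, Kcnq1, Kcne3, Kcnn4, Slc26a3, Slc26a6, Slc9a3 and Slc9a2. They were taken by gene symbol from a table of 27179 genes, all 10 were found there, and all 10 passed the filter on low values. The genes were chosen with the values of this comparison known, so their differences between groups are given as a description, with no p-value.

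The organoids, epithelial crypt cultures that grow and bud in Matrigel, came from wild-type (WT) mice. They received T3, the active thyroid hormone, at 1e-07 M or its vehicle for 17 h, with 3 directional total RNA libraries in each group. No label says that the libraries of a group came from separate cultures or animals. SDs and p-values therefore reflect variation among these 6 libraries only, and it may be technical. The study asked which transcripts differ between organoids with T3 and organoids kept in control condition.

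VIP is released mainly by enteric neurons, and VPAC1 on epithelial cells couples to the stimulatory G protein that raises cyclic AMP (cAMP). In crypt cells cAMP opens CFTR, the apical chloride channel, while the sodium-potassium-chloride cotransporter NKCC1 (encoded by Slc12a2) loads chloride across the basolateral membrane and potassium channels keep the electrical drive. The same signal inhibits NHE3 (Slc9a3), the apical sodium-hydrogen exchanger, which works beside apical chloride-bicarbonate exchangers (Slc26a3, Slc26a6) in salt absorption.

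The promoters of 5 of these genes are shown because 4 belong to genes with at least 3-fold higher levels with T3, and the fifth holds the single match to the half-site bound by thyroid hormone receptors. Sequences are from RefSeq (GRCm38.p6), run 5′ to 3′ on the strand of the gene, and span 250 bases before to 50 bases after the annotated start. They lie at chr9:121642466-121642765 (Vipr1), chr7:100176420-100176719 (the first of the 2 Kcne3 starts), chr9:108853793-108854092 (Slc26a6), chr13:74121163-74121462 (Slc9a3) and chr12:31437969-31438268 (Slc26a3), each on the plus strand. Capitals mark motif matches.
Vipr1: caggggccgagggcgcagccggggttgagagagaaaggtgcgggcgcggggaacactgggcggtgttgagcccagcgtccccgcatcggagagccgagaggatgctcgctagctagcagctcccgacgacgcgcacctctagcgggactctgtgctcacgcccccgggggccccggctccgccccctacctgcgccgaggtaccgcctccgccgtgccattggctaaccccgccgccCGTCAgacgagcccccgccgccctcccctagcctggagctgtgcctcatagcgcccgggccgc
Kcne3: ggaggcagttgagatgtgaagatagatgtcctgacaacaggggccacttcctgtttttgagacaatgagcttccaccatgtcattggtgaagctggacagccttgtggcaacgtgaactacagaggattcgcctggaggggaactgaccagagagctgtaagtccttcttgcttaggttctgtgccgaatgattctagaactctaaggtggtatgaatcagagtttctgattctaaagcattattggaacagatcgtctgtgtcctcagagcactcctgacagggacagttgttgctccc
Slc26a6: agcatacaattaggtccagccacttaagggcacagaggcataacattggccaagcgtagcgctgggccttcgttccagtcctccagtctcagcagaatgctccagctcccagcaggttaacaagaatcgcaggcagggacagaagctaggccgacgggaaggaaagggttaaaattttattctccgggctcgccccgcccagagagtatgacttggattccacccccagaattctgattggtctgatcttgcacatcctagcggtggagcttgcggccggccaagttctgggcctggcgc
Slc9a3: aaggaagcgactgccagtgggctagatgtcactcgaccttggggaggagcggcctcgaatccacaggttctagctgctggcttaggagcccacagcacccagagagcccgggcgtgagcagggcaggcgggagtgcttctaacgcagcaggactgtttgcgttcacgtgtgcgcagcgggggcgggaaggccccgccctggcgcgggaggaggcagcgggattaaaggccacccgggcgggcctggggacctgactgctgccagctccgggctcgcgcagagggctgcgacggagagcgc
Slc26a3: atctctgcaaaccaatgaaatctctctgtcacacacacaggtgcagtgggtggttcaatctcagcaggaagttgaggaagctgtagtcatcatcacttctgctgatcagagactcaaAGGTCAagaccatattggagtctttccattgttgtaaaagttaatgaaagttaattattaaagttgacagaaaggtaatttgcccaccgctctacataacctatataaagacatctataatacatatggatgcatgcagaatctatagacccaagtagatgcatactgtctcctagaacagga

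The motifs searched, on both strands, were the thyroid hormone receptor half-site AGGTCA and its direct repeat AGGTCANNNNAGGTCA, and the cAMP response element TGACGTCA and its shorter form TGACG, which is contained in the full element. Among 8 promoters of 7 of the 10 genes (Cftr, Kcnn4, Kcne3, Slc26a6, Vipr1, Slc26a3 and Slc9a3), AGGTCA occurred once, in Slc26a3 at bases -133 to -128, and TGACG occurred once, on the minus strand in Vipr1 at bases -13 to -9, where -1 is the base before the start. Over all 32851 promoters of this length, 16.3% held AGGTCA, 0.0152% the direct repeat, 1.79% TGACGTCA and 20.8% TGACG. The Vipr1 window was rich in G and C (73.7% of bases) and the Slc26a3 window poor (39.3%), against a median of 52.7% over all promoters. Windows for Kcnq1, Slc12a2 and Slc9a2 were not used here. The windows of Slc26a3 and Slc9a3 end before the first exon of the deposited models, at 31438301 and 74121515. A match in these windows is a description of the letters only.

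Levels are normalized reads, which the authors deposited after scaling the libraries to each other and rounding, and log2 differences are T3 minus vehicle on the log2(value + 1) scale with their standard error (SE). Column totals were 28197080 to 28611883 in vehicle and 29510422 to 29974091 in T3 libraries, and these follow scaling, so the reads actually sequenced are not known from them. Among replicate libraries, T3 replicate 3 was the farthest from its group (mean chi-square distance per gene of 13.9 and 14.9, against 4.89 to 9.92 in the other pairs). Since it was computed on scaled values, that distance is a description and not a test against counting error. All 13 enterocyte markers passed the filter on low values, and summed to 102175 to 105444 with vehicle and 143328 to 160692 with T3. Neuron markers summed to 351 to 451 in any library, and fibroblast and muscle markers to 255 to 389. Immune markers summed to 128 to 162 with vehicle and 392 to 410 with T3, with Cd8a and Adgre1 at 0 in all 6 libraries. Itgam, an integrin chain singled out after its values were seen, made up that gap, at 97.3 ± 15.2 and 349 ± 7.55 (SD, n = 3), while Ptprc, carried by all leukocytes, reached at most 3 in any library and Cd68 averaged 47 and 49.3. The endothelial genes Cdh5 and Kdr, the colon genes Car1 and Best2 and the stomach gene Muc5ac were also listed at 0 in all 6.

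Of the 10 genes, 5 were more than 3-fold higher with T3: Vipr1, Slc9a3, Slc26a6, Kcne3 and Slc9a2. Cftr was 1.25-fold higher, Kcnn4 was 1.62-fold lower, and Slc12a2, Kcnq1 and Slc26a3 differed by at most 0.12 on the log2 scale. At an adjusted p under 0.05 in limma's fit over 13052 genes, with Benjamini-Hochberg adjustment, 7 of the 10 were called, 6 higher and 1 lower, where 44.8% of all tested genes were called (24% higher and 20.8% lower). The groups did not overlap at 8 of the 10, with every T3 library above every vehicle library at 6 and below at 2. Over all tested genes the share without overlap was 54.9% (28.4% above and 26.5% below). The count of 7 was 8 with upper-quartile scaling, with equal column totals or without T3 replicate 3, Slc26a3 being added on the lower side. Since the genes were chosen with these values known, these counts describe the choice, and nothing is read from them.

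**Figure D1:**
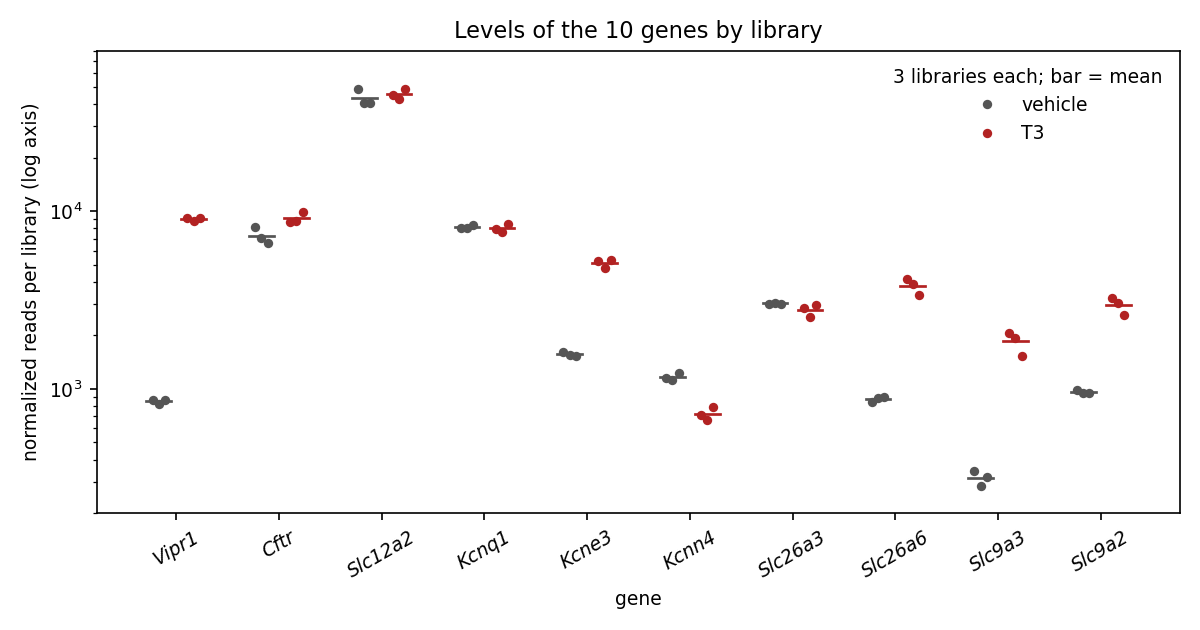
Normalized reads (vertical, log axis) of the 10 genes (horizontal) in the 3 vehicle libraries (grey) and the 3 T3 libraries (red), with a bar at each group mean. Vipr1 moves from a mean of 852 to 9035, while the 2 groups of Slc12a2 and of Kcnq1 overlap.

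The receptor showed the widest gap of the 10 genes. Vipr1 (gene ID 22354, mm10 chromosome 9, 121642716 to 121672954, plus strand, 13 exons) stood at 869, 826 and 860 normalized reads with vehicle and at 9154, 8839 and 9111 with T3. The lowest T3 library was far above the highest vehicle library, and the spread within each group was small, with SDs of 22.7 around 852 and 171 around 9035 (n = 3). The log2 difference was 3.41 (SE 0.04), or 10.6-fold. Per kb of exon, the scale on which genes can be compared, Vipr1 went from 174 to 1843 normalized reads, from rank 8191 to rank 1372 among the 13052 tested genes. Only 0.260% of tested genes had a larger log2 rise. In bulk RNA, more cells of a type and more RNA per cell cannot be told apart, for this gene or any below.

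The 5 genes whose profile over the 6 libraries lay closest to that of Vipr1, by root mean square log2 distance after subtracting each gene's vehicle mean, were Ppard (0.0677), Upp1 (0.0875), Fut4 (0.164), Slc13a1 (0.191) and Sgk1 (0.209). Other genes followed here, genes without a symbol and unnamed models (Gm with a number, or ending in Rik) were not candidates. Ppard, a nuclear receptor for fatty acids, stood at 963, 1025 and 1022 with vehicle and at 11217, 11131 and 10461 with T3. Sgk1, a kinase that regulates epithelial ion transporters, stood at 54, 63 and 44 with vehicle and at 546, 455 and 553 with T3.

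The other receptors of the VIP family were at or near 0 in every library. Vipr2, the VPAC2 receptor, was listed at 3, 0 and 2 with vehicle and 1, 0 and 1 with T3. Adcyap1r1, the PAC1 receptor for PACAP, reached at most 3, and Sctr, the secretin receptor, was 0 in all 6. The peptides themselves were also scarce: Vip was 0 in all 6 libraries, and Adcyap1, which encodes PACAP, reached at most 4. Sct, the secretin gene of enteroendocrine cells, was detected at 115, 123 and 144 with vehicle and at 129, 117 and 108 with T3, with overlapping groups (adjusted p = 0.532). Vipr1 was thus the only one of these 4 receptor genes that passed the filter of 10 normalized reads in at least 3 libraries.

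The chloride channel and the cotransporter that feeds it differed little between groups. Cftr (gene ID 12638, chromosome 6, 18170687 to 18322770, 27 exons) stood at 8133, 7047 and 6662 normalized reads with vehicle and at 8663, 8756 and 9931 with T3. The groups did not overlap, though vehicle replicate 1 came close to the lowest T3 library. The log2 difference was 0.33 (SE 0.08), or 1.25-fold, and ran from 0.26 to 0.41 over 17 other ways of processing. An antisense gene, Gm15592, shares 129 of the 6305 exon bases of Cftr, and no source used here says whether reads were counted by strand, so its reads cannot be told apart there.

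Slc12a2 (gene ID 20496, chromosome 18, 57878678 to 57946821, 27 exons) stood highest of the 10 genes in every library, also per kb, at 48447, 40867 and 40594 with vehicle and 45015, 42689 and 48640 with T3. The groups overlapped. Its log2 difference was 0.07 (SE 0.08), 0.16 without vehicle replicate 1 and 0.01 with equal column totals. Per kb, Slc12a2 stood at 6642 normalized reads with vehicle and 6971 with T3, within the top 2.21% of tested genes in vehicle.

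Both long transcripts were highest, among vehicle libraries, in replicate 1. Their deviations from the vehicle mean there were 0.16 (Cftr) and 0.17 (Slc12a2) on the log2 scale. In the same library, deviations of all 13052 genes rose with exon length (Spearman rho 0.298, genes not being independent), and the 1369 genes of at least 6 kb had a median deviation of 0.09 against -0.01 for the rest. In the other 5 libraries this rho lay between -0.237 and 0.0529. Its part in the vehicle values of Cftr and Slc12a2 was not tested, but the log2 difference without that library is given above for Slc12a2 and was 0.41 for Cftr.

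The potassium channel genes went 3 ways. Kcne3 encodes the small subunit that turns KCNQ1 into a constitutively open, cAMP-stimulated basolateral channel. It stood (gene ID 57442, chromosome 7, 100176670 to 100184869, 6 exons) at 1617, 1559 and 1535 with vehicle and at 5239, 4798 and 5324 with T3, a log2 difference of 1.70 (SE 0.05), or 3.26-fold. Every T3 library was above every vehicle library.

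Its pore-forming partner Kcnq1 (gene ID 16535, chromosome 7, 143107254 to 143427042, 16 exons) stood at 8070, 8087 and 8377 with vehicle and at 7974, 7659 and 8498 with T3. The groups overlapped, and the log2 difference was -0.02 (SE 0.05), between -0.09 and 0.01 over the alternatives. The antisense transcript Kcnq1ot1 shares 121 of its exon bases (3.99%). The other KCNQ1 subunits looked for, Kcne1 and Kcne2, were listed at 0 in all 6 libraries.

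Kcnn4, the calcium-activated basolateral channel used in secretion by calcium signals (gene ID 16534, chromosome 7, 24370263 to 24385212, 9 exons), had the largest difference toward lower levels of the 10 genes. It stood at 1149, 1125 and 1226 with vehicle and at 713, 665 and 791 with T3, without overlap, a log2 difference of -0.69 (SE 0.07). The ratio of Kcne3 to Kcnq1 per kb, which does not depend on scaling between libraries, was 0.353, 0.340 and 0.323 with vehicle and 1.16, 1.10 and 1.10 with T3. Subunit transcripts were thus below those of the channel in every vehicle library and slightly above them in every T3 library. The ratio of Kcnn4 to Kcnq1 went from 0.212 ± 0.00539 to 0.133 ± 0.00467 (SD, n = 3).

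The apical anion exchangers parted. Slc26a6, which encodes the chloride-bicarbonate and oxalate exchanger PAT1 (gene ID 171429, chromosome 9, 108854043 to 108913049, 20 exons), stood at 840, 884 and 896 with vehicle and at 4162, 3893 and 3392 with T3. All T3 libraries were above all vehicle libraries, by 2.12 (SE 0.07) on the log2 scale or 4.35-fold. In the model of Slc26a6 as deposited, the largest distance from the end of an exon to the start of the next was 50267 bases. GENCODE also assigns all 3143 exon bases of this model to Slc26a6. Slc26a3, which encodes DRA, the exchanger that is mutated in congenital chloride diarrhoea (gene ID 13487, chromosome 12, 31438301 to 31473719, 21 exons), stood at 2991, 3059 and 3022 with vehicle and at 2847, 2550 and 2979 with T3.

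The T3 libraries of Slc26a3 all lay below the vehicle libraries, but T3 replicate 3 only just. The log2 difference was -0.12 (SE 0.06), and ran from -0.18 to -0.05 over the alternatives. Per kb, the ratio of Slc26a6 to Slc26a3 was 0.235, 0.242 and 0.248 with vehicle and 1.22, 1.28 and 0.952 with T3. With T3 the libraries of the 2 exchangers overlapped in level (1214 ± 124 and 1062 ± 83.6 normalized reads per kb, SD, n = 3).

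The apical sodium-hydrogen exchangers were both higher. Slc9a3 (gene ID 105243, chromosome 13, 74121515 to 74166064, 16 exons) stood at 343, 285 and 321 with vehicle and at 2070, 1939 and 1539 with T3, a log2 difference of 2.54 (SE 0.11) or 5.80-fold, the second largest of the 10 genes. Slc9a2, which encodes NHE2 (gene ID 226999, chromosome 1, 40681712 to 40768885, 12 exons), stood at 987, 946 and 950 with vehicle and at 3249, 3049 and 2612 with T3, a log2 difference of 1.62 (SE 0.07) or 3.08-fold. Neither gene's groups overlapped. The ratio of Slc9a3 to Slc9a2 per kb went from 0.461 ± 0.0342 to 0.871 ± 0.0383 (SD, n = 3), and it was below 1 in every library.

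**Figure D2:**
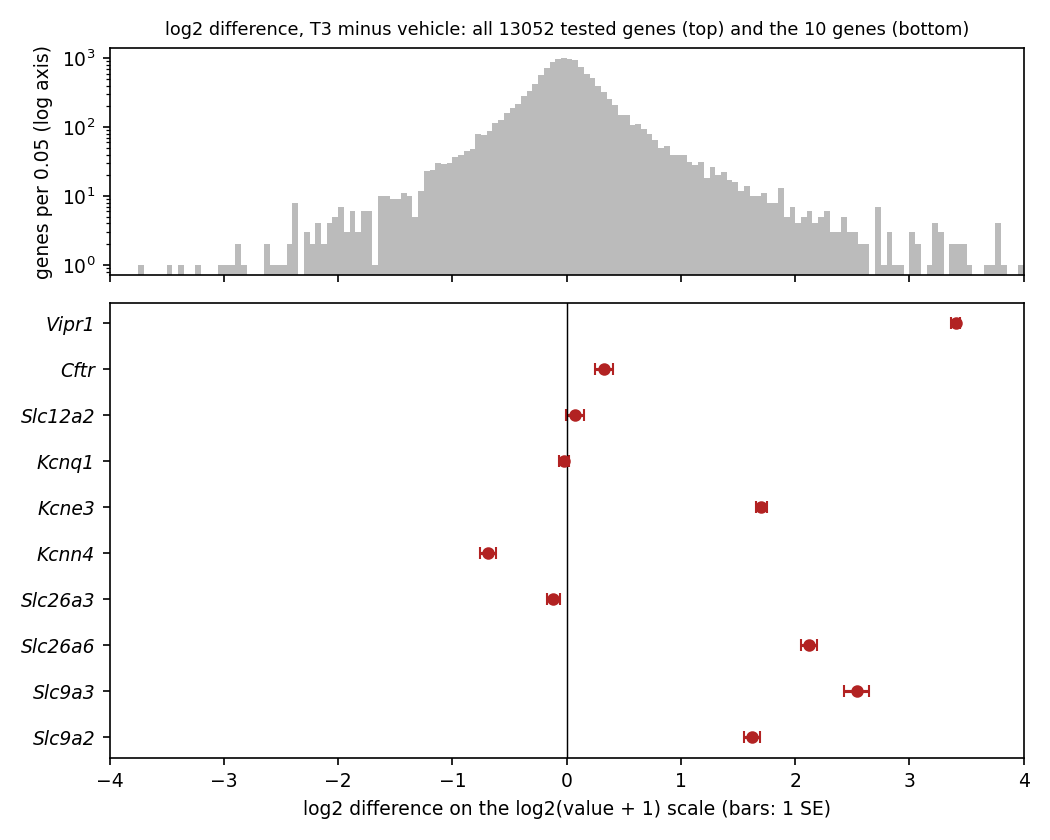
Log2 difference, T3 minus vehicle (horizontal), for all 13052 tested genes as a histogram with a log count axis (top, differences from -4 to 4, with 23 genes beyond that range not drawn) and for each of the 10 genes (bottom, points with bars of 1 SE). Vipr1 at 3.41 and Slc9a3 at 2.54 lie in the far right tail, Slc12a2 and Kcnq1 lie at the centre, and Kcnn4 at -0.69 is on the left.

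T3 replicate 3 was the lowest T3 library for Slc26a6, Slc9a3 and Slc9a2. It was the highest T3 library for Cftr, Slc12a2, Kcnq1, Kcne3, Kcnn4 and Slc26a3. Vipr1 was highest in T3 replicate 1. Without T3 replicate 3 the log2 differences of Slc26a6, Slc9a3 and Slc9a2 were 2.20, 2.66 and 1.71, and each remained at least 2.06, 2.45 and 1.55 whichever library was left out.

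Set against Cftr in the same library, Slc9a3, Slc26a6 and Slc9a2 were still higher with T3, and Slc26a3 was lower. Cftr was itself 1.25-fold higher, so a smaller fold in a ratio to it follows by arithmetic. The mean ratios with T3 were 4.70, 3.49 and 2.48 times those with vehicle, against 5.80, 4.35 and 3.08 for the genes' own levels. The first 3 values divide group means, while the others come from the log2 differences. The ratio of Slc9a3 to Cftr per kb was 0.107, 0.102 and 0.122 with vehicle and 0.605, 0.561 and 0.392 with T3. The ratio of Slc26a6 to Cftr went from 0.243 ± 0.0322 to 0.847 ± 0.145, and that of Slc9a2 to Cftr from 0.240 ± 0.0193 to 0.593 ± 0.106 (SD, n = 3). The ratio of Slc26a3 to Cftr went from 1.00 ± 0.108 to 0.736 ± 0.0470 (SD, n = 3). Vipr1 to Cftr went from 0.151 ± 0.0143 to 1.28 ± 0.0911, and Slc12a2 to Cftr from 5.75 ± 0.142 to 4.83 ± 0.173. None of these ratios overlapped between the groups. They all share Cftr, whose own groups did not overlap, so they are not separate results. The share of other gene pairs without overlap was not computed, and nothing is read from this.

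**Figure D3:**
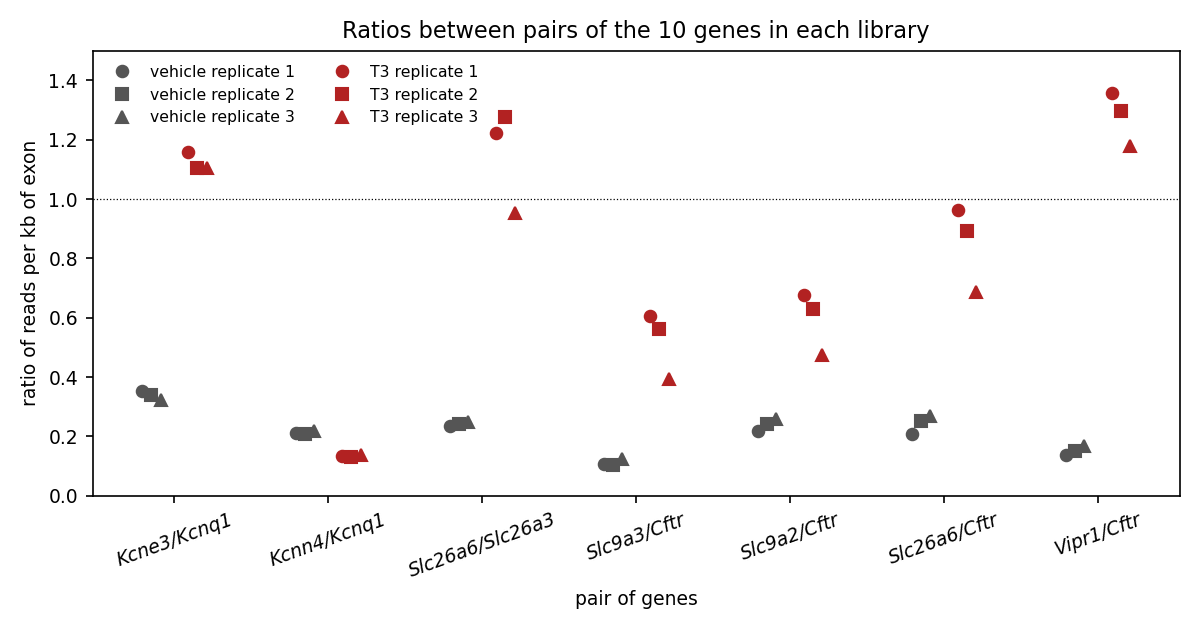
Ratio of normalized reads per kb of exon (vertical) for 7 pairs of the genes (horizontal) in each vehicle library (grey) and T3 library (red), with the marker shape giving the replicate number and a dotted line at equal levels. The ratio of Kcne3 to Kcnq1 moves from a mean of 0.339 to 1.12, and T3 replicate 3 is the lowest T3 library in the ratios of Slc26a6, Slc9a3, Slc9a2 and Vipr1 to Cftr.

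The order of the genes by level changed with T3. In vehicle libraries it ran, per kb, Slc12a2 (6642 normalized reads), Kcnq1 (2700), Cftr (1155), Slc26a3 (1151), Kcne3 (914), Kcnn4 (573), Slc26a6 (278), Slc9a2 (275), Vipr1 (174) and Slc9a3 (127). Libraries overlapped between Cftr and Slc26a3 and between Slc26a6 and Slc9a2, so those neighbours did not differ beyond their spread. In T3 libraries the order was Slc12a2 (6971), Kcne3 (2980), Kcnq1 (2656), Vipr1 (1843), Cftr (1446), Slc26a6 (1214), Slc26a3 (1062), Slc9a2 (850), Slc9a3 (743) and Kcnn4 (355). There the overlapping neighbours were Kcne3 and Kcnq1, Slc26a6 and Slc26a3, and Slc9a2 and Slc9a3. Within each T3 library, however, Kcne3 stood above Kcnq1 and Slc9a2 above Slc9a3. Vipr1 passed from rank 9 to rank 4 of the 10, and Kcnn4 went from rank 6 to the last. In normalized reads per kb gained, Kcne3 led with 2066, ahead of Vipr1 with 1669 and Slc26a6 with 936.

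Lists of other genes of the pathway, chosen by role but with earlier results of these data known, place these values among their neighbours. Over 7 lists, 143 of 215 genes were tested, 47 rose and 31 fell, or 54.5% called against 44.8% of all tested genes. The median log2 difference was 0.06 over these 143 genes and -0.01 over all genes. The lists are described by counts and medians, no list was tested as a whole, and nothing is read from the share called.

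Of 7 tested ligand genes, none was called by limma, 1 had an unadjusted p under 0.05, and the authors' deposited table called none. Their median was -0.14. Guca2a and Guca2b, which encode guanylin and uroguanylin, the peptides that stimulate chloride secretion through cyclic GMP, stood at 1991 ± 220 and 810 ± 127 normalized reads with vehicle and 1860 ± 355 and 704 ± 68.9 with T3 (SD, n = 3; adjusted p = 0.524 and 0.186). Vehicle replicate 1 decides that count: without it 3 of the 7 were called lower, Guca2b (log2 difference -0.31), Sst (-0.48) and Pyy (-1.10), the last 2 being named here after their values were seen.

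Of 15 tested receptors of other secretory and antisecretory signals, 4 rose and 5 fell, with a median of -0.19. Adra2a, the alpha-2A adrenergic receptor, which lowers cAMP, stood at 596, 572 and 531 with vehicle and fell to 115, 162 and 84 with T3 (log2 difference -2.27, SE 0.19, adjusted p = 1.24e-05). P2ry2, a receptor for ATP and UTP that signals through calcium, rose 2.01-fold (adjusted p = 2.39e-05), and Ptger4, a prostaglandin E2 receptor that raises cAMP, rose 1.48-fold (adjusted p = 7.45e-05). Gucy2c, the guanylin receptor, fell 1.25-fold from 10819 ± 265 to 8636 ± 330 (SD, n = 3; adjusted p = 0.000181). Receptors that raise cAMP or calcium were thus found among both the higher and the lower calls, since Chrm3, a muscarinic receptor, fell (log2 difference -0.53); it was named after its values were seen.

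Below the receptors, 42 genes of cAMP and cyclic GMP signalling were tested; 4 rose and 14 fell, with a median of -0.13. The split was 2 against 15 with upper-quartile scaling and 2 against 17 with equal column totals, and 11 were called at an adjusted p under 0.01. Adcy9 and Adcy1, both adenylyl cyclases, went in opposite directions. Adcy9 rose from 331, 296 and 306 to 739, 680 and 700 (adjusted p = 1.12e-06), while Adcy1 fell from 297, 295 and 297 to 77, 79 and 52 (adjusted p = 5.1e-06). Pkig, an inhibitor of protein kinase A, rose 1.53-fold (adjusted p = 5.67e-06), and Crtc1, a coactivator of the cAMP response factor CREB, fell 1.54-fold (adjusted p = 3.51e-05). Gnas, which encodes the stimulatory G protein that VPAC1 uses, stood at 16780 ± 304 and 16051 ± 523 (SD, n = 3) and was not called (adjusted p = 0.228).

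All 26 listed regulators of CFTR and NHE3 were tested, of which 9 rose and 5 fell, with a median of 0.10. Slc9a3r1, the scaffold NHERF1 that binds the tails of CFTR and NHE3, rose from 3683 ± 9.02 to 6424 ± 98.8 (SD, n = 3), 1.74-fold (adjusted p = 1.39e-07). Sgk1 rose 9.56-fold (adjusted p = 1.68e-07). Myo5b, the motor that carries apical cargo, and Stx3, an apical membrane fusion protein, rose by 0.55 and 0.42 on the log2 scale (adjusted p = 3.07e-06 and 2.37e-05).

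Among 33 tested genes of other chloride and bicarbonate transport, 17 rose and 4 fell, with a median of 0.36. Lrrc8d and Lrrc8b, subunits of the volume-regulated anion channel, rose 2.52-fold and 2.67-fold (adjusted p = 2.45e-08 and 1.66e-07). Lrrc8e, a further subunit, fell 1.79-fold (adjusted p = 0.00282). Lrrc8a was not called (adjusted p = 0.130), and Lrrc8c did not pass the filter on low values. These further subunits were named after their values were seen. Slc4a4, the basolateral sodium-bicarbonate cotransporter, rose from 2713 ± 213 to 5343 ± 382 (SD, n = 3; adjusted p = 2.62e-06), and Slc12a7, a potassium-chloride cotransporter, rose 1.46-fold (adjusted p = 2.9e-06). Slc4a4 and Slc12a7 thus rose in libraries where Slc12a2, the chloride loader, overlapped between groups.

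Of 10 tested genes of other potassium channels and the sodium pump, 8 rose and none fell, with a median of 0.53; 6 rose under each of the other scalings. Atp1b1, a subunit of the sodium pump, rose 1.79-fold (adjusted p = 3.89e-07). Kcnk5, a potassium channel that opens with alkaline pH, rose 1.76-fold (adjusted p = 2.32e-06), and Kcnk1 rose 1.34-fold (adjusted p = 3.06e-05). Both went the way of Kcne3 and not of Kcnn4.

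Of 10 tested genes of other sodium uptake, 5 rose and 3 fell, with a median of 0.22. Slc9a5, a further sodium-hydrogen exchanger, rose 2.23-fold (adjusted p = 1.92e-06), below the 5.80-fold and 3.08-fold of Slc9a3 and Slc9a2. Slc34a2 and Slc20a2, which carry sodium with phosphate, fell 3.68-fold and 1.31-fold (adjusted p = 9.68e-05 and 5.73e-05). Their relative Slc20a1, named after its values were seen, was called higher (log2 difference 0.19, adjusted p = 0.0408), with overlapping groups. Of the subunits of the epithelial sodium channel, Scnn1b and Scnn1g did not pass the filter on low values, while Scnn1a, named after its values were seen, fell from 215 to 152 (adjusted p = 0.00679).

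**Figure D4:**
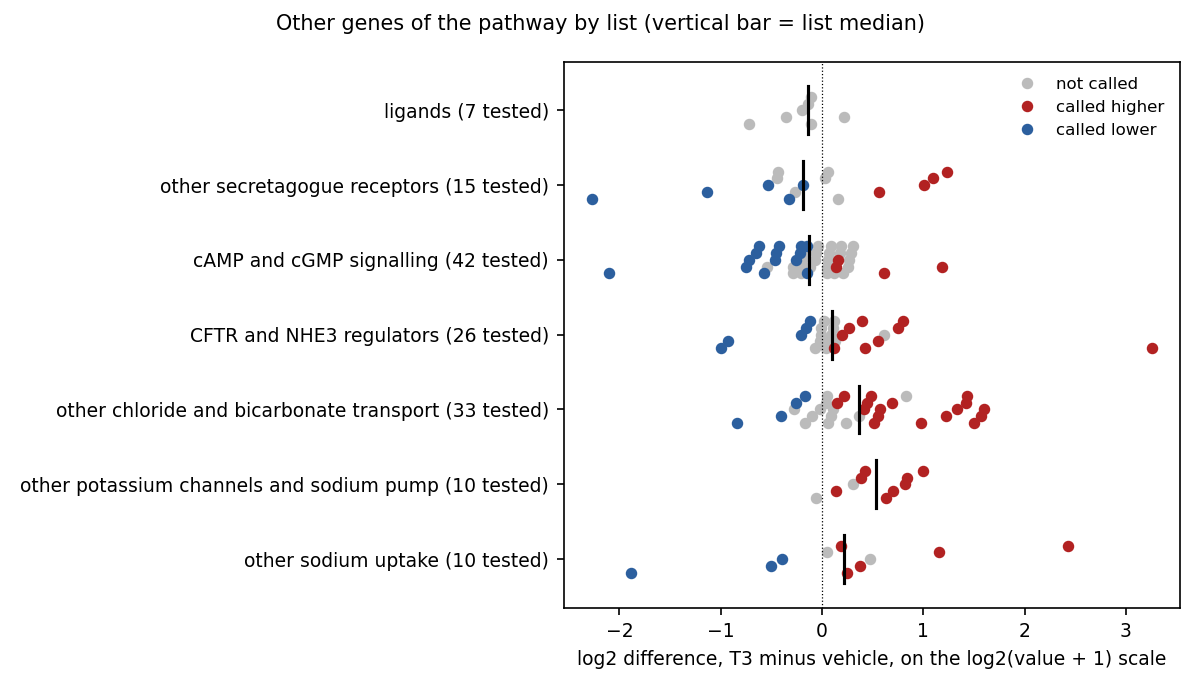
Log2 difference, T3 minus vehicle (horizontal), of each tested gene in the 7 lists of other pathway genes (rows), coloured by whether it was called higher (red), lower (blue) or not called (grey), with a bar at the list median. The list medians run from -0.19 for other secretagogue receptors to 0.53 for other potassium channels and the sodium pump, and Sgk1 at 3.26 and Adra2a at -2.27 are at the extremes.

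Markers of some epithelial cell types moved in the same comparison, in which 44.8% of all tested genes were called. Of 13 enterocyte markers 8 rose and 2 fell, and of 8 crypt stem cell markers none rose and 7 fell, their sum going from 60436 to 68343 with vehicle to 27801 to 30859 with T3. Of 8 Paneth cell markers 3 rose and none fell, of 8 goblet cell markers 1 rose, of 8 enteroendocrine markers 1 fell, and of 6 tested tuft cell markers 2 fell. The part of these shifts in the levels of the transporters was not tested.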

How the data were processed

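RNA sequencing of 3 vehicle and 3 T3 libraries was analysed from the authors' deposited table, whose sample columns give gene-level reads after scaling and rounding, that is, a normalized score rather than a raw count. The deposited mean equalled the mean of the 6 columns to within 0.833 in every gene. The authors' deposited log2 fold changes and p-values served only as an alternative. STAR, Subread and DESeq2 are named, without versions or roles, in the submitters' processing notes; whether reads were counted by strand was not stated in them. The build was mm10, per the file headers, and exon lengths and positions are those deposited. Overlaps came from GENCODE annotation of GRCm38.

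Groups were compared with limma 3.58.1 (R 4.3.3) on log2(value + 1), with a trend in the moderated variance and no replicate block, over the 13052 genes that reached 10 normalized reads in 3 or more of the 6 libraries; genes were called at a Benjamini-Hochberg adjusted p under 0.05. This differs from the test for raw counts, which was kept only for that case. Fold changes understate the change of low genes. statmod 1.5.0 gave the robust variant; pandas 2.3.3 and scipy 1.17.1 in Python 3.11.15 gave ratios and correlations. The 10 genes and all lists were chosen with earlier results of these data known. The rule for named genes took up to 4 called genes with the smallest p from each list, or up to 2 with the highest mean where fewer than 2 were called, all VIP family genes, and the 5 genes nearest Vipr1. A few genes that this rule takes are left out of the text. Alternatives, 17 in all, were other scalings, filters, pseudocounts, thresholds and variance models, the authors' comparison, a replicate block and leaving out each library. Same-numbered libraries had correlations of deviations between -0.0701 and 0.0278, so their numbers were not taken as pairs.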

Additional observations from a re-analysis of the deposited data

How the results depend on the processing

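None of the 78 called genes of the 7 lists changed sign under any alternative. The other filters, the variance models, the stricter threshold and the balanced replicate block cannot change a log2 difference. Their cases were therefore fixed beforehand, here and in the next count. Log2 differences of the 10 genes moved by less than their spread in 166 of 170 cases; the exceptions were Vipr1 (3.36 with upper-quartile scaling, 3.34 with equal totals) and, with equal totals, Kcnq1 (-0.09) and Kcne3 (1.64). Over all genes 53.6% of calls were higher, against 42.9% with upper-quartile scaling and 38.7% with equal totals, while the median of all genes shifted by -0.05 and -0.07. Calls over all genes ran from 4497 to 5895 without any 1 library, and ligand calls from 0 to 3. The list of cAMP and cyclic GMP genes kept 11 calls at an adjusted p under 0.01. Of those 78, 71 were called in the same direction under each of the other scalings. With the replicate number as a block, 5405 genes were called (2933 higher). No label says whether the numbers pair the libraries. Scaling removed the true depth, so counting error could not be given.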
